A study of Mus musculus with 8 samples.

Results

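Inhibitory checkpoint receptors and their ligands were followed in lymphocytes and macrophages of blood and grafted organs. The set held 9 of the 24405 genes listed in the tables, chosen by name, and each of them had a row in all 8 libraries. Of these, 6 encode receptors (Pdcd1, Cd160, Lag3, Havcr2, Tigit and Ctla4) and 3 encode ligands (Cd274, Pdcd1lg2 and Lgals9). Hearts, livers and kidneys of 8-week-old BALB/c mice were transplanted into C57BL/6 recipients that received no immunosuppressive drug, and material was taken on day 7. Peripheral blood mononuclear cells (PBMC), tissue-infiltrating lymphocytes (TIL, enriched on a density gradient) and parenchymal cells (PC) were read by Microwell-seq, in which barcoded beads capture the mRNA of single cells in microwells and each molecule carries a unique molecular identifier (UMI). Heart, liver and kidney each gave a PBMC and a TIL library, liver and kidney also a PC library, 1 per condition, all labelled as male BALB/c mice. There were 2 recipients for each organ, and how their material was divided over or pooled in a library is not given in the sources used here. With 1 library per condition no condition could be tested on its own, and TIL against PBMC was tested over the 3 organs. Intervals in parentheses are exact 95% intervals that cover counting error only. Heart PC was not analysed here.

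Checkpoint receptors restrain activated T cells. PD-1, the product of Pdcd1, binds PD-L1 (Cd274) and PD-L2 (Pdcd1lg2), which antigen-presenting and tissue cells display, and recruits phosphatases that weaken signalling from the T-cell receptor. CTLA-4 competes with the costimulatory receptor CD28 for its ligands and is held at high levels by regulatory T cells. LAG-3 binds MHC class II, TIM-3 (Havcr2) has galectin-9 (Lgals9) among its ligands, TIGIT binds the poliovirus receptor family, and CD160 binds the herpesvirus entry mediator and is also found on NK cells. All of these receptors can appear during ordinary activation of a CD8 T cell, and several of them together are a known feature of T cells under lasting antigen exposure.

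The genes lie on several chromosomes of GRCm38. Pdcd1 (ENSMUSG00000026285) occupies chromosome 1 from 94038305 to 94052553 on the minus strand, and Ctla4 (ENSMUSG00000026011) lies on the same chromosome from 60887000 to 60915832 on the plus strand. The ligand genes Cd274 (ENSMUSG00000016496, 29367455 to 29388095) and Pdcd1lg2 (ENSMUSG00000016498, 29410919 to 29471161) are neighbours on the plus strand of chromosome 19. Cd160, Ctla4, Cd274 and Pdcd1lg2 each overlap another annotated gene, Pdzk1, Rpl18-ps1, AC119228.1 and A930007I19Rik respectively. Ctla4 and Rpl18-ps1 lie on the same strand, the other pairs on opposite strands. Whether the counting used strand is not given in the sources used here, so reads of an overlapping pair could not be separated. For Ctla4, strand could not separate them in either case. RefSeq promoter windows (GRCm38.p6, 250 bases before to 50 after the start) were found for 8 of the 9 genes. The windows of Pdcd1, Ctla4 and Cd274 are shown because their levels differed clearly between blood and graft or between cell types, with capitals at each GGAAA on either strand, the core recognised by NFAT factors of activated T cells.

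Pdcd1 promoter, chr1:94052504-94052803, minus strand: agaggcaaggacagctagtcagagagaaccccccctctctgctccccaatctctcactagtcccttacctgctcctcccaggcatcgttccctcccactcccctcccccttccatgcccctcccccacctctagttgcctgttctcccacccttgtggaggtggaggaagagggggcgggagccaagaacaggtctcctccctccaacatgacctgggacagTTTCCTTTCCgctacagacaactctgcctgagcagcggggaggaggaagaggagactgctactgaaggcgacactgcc
Ctla4 promoter, chr1:60908775-60909074, plus strand: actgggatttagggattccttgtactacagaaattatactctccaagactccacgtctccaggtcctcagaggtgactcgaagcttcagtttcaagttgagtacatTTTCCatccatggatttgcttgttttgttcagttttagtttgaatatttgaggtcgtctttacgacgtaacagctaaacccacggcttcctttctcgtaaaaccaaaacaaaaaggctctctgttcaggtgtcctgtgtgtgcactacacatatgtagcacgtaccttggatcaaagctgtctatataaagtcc
Cd274 promoter, chr19:29367188-29367487, plus strand: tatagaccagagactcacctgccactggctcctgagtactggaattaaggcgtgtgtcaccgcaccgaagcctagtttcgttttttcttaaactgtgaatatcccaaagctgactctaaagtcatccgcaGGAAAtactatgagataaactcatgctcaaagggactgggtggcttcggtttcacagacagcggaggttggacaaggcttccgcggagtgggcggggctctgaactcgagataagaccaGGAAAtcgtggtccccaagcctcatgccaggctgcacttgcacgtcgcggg

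The Pdcd1 window held 2 such cores, the Cd274 window held 2 and the Ctla4 window 1. The start RefSeq gives for Ctla4 lies inside the span that GENCODE gives for the gene. GGAAA occurred in 61.3% of all 32851 promoter windows of the same length, so most promoters hold it. The AP-1 motif TGANTCA, present in 7.81% of windows, occurred once in the Havcr2 window and in none of the other 7 genes searched. An interferon response element, searched as GAAA, any 2 bases and GAAA, present in 3.44% of windows, occurred 2 times in the Lgals9 window and in none of the other genes searched.

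Cells with at least 500 UMIs were kept, which left 47542 of 80000 barcodes and between 795 (kidney PC) and 10000 (liver PC) per library. A CD8 T cell had at least 2 UMIs of Cd8a and Cd8b1 together, a CD4 T cell at least 1 of Cd4 and 1 of the CD3 genes, a macrophage at least 1 of Csf1r, and an NK cell at least 2 of Ncr1, Klrb1c, Klra8 and Klra4 and none of the CD3 or Cd8 genes. A neutrophil gate, used for background, asked for at least 2 UMIs of Retnlg, Csf3r and Cxcr2 and none of Csf1r or the CD3 genes. The first 4 gates took 10917, 572, 8462 and 347 cells in all, and the CD8 gate held between 183 (liver PBMC) and 4803 (liver PC) cells at median depths of 609.5 to 1698 UMIs. T-cell markers (Cd3d, Cd3e, Cd3g and Trac) summed to 2355 to 4365 UMIs per 1000000 UMIs of the gate (CPM) in the CD8 gates, and in kidney PC the macrophage gate carried as many (2826 against 2809 in CD8). Macrophage markers also stood in the CD8 gates, from 878 CPM in kidney PBMC to 11748 in kidney PC, and neutrophil markers reached 18310.2 CPM in heart PBMC. Gates could overlap, and 22.6% of liver PC CD8 cells and 1.43% to 13.3% of those in the other libraries also passed the macrophage gate. The labels of 2 TIL libraries ran against their organ markers, since the library labelled heart TIL held 1056 UMIs of the hepatocyte gene Alb and 2 of the atrial gene Myl7, while the one labelled liver TIL held 0 and 128. Values are given under the deposited labels. For the graft and blood comparison, they are also given with both labels exchanged for each of the 9 genes whose call that changed. Pairs of libraries shared 1 to 600 barcodes, and 95 of 10822 CD8 barcodes occurred in 2 or more libraries.

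Pdcd1 was higher in CD8 T cells of every graft library than in blood CD8 T cells of the same organ. Its level was 81.9, 19.4 and 98.5 CPM in blood CD8 T cells of heart, liver and kidney recipients. Among the grafts it was 167 CPM in TIL labelled heart, 271 in TIL labelled liver, 308 in kidney TIL, 139.9 in liver PC and 238 in kidney PC. The lowest graft level thus stood above the highest blood level, and liver PBMC was the lowest of all, with 4 UMIs. Graft over blood was 2.04-fold (1.43 to 3.0) for TIL labelled heart, 13.9-fold (5.41 to 51.3) for TIL labelled liver and 7.20-fold (2.81 to 26.5) for liver PC. The kidney ratios were 3.12-fold (2.18 to 4.59) for TIL and 2.42-fold (1.47 to 3.98) for PC. That of kidney PC was lost in cells of at least 1000 UMIs, where 10 CD8 T cells held 0 Pdcd1 UMIs and the log2 ratio was -7.02, with an interval that still includes 1. In the kidney grafts Pdcd1 was not limited to the CD8 gate, since cells of no gate held 212 CPM in TIL and 167 in PC, against 31.6 in kidney blood. Barcodes under 500 UMIs held 180.4 and 166 CPM, against 20.4 in kidney blood, so Pdcd1 was higher across the kidney graft libraries as a whole. Kidney TIL cells with 0 Cd8 UMIs also held 2365 CPM of T-cell markers, against 3221 in the CD8 gate. The part of T cells outside that gate in these Pdcd1 levels was not tested. In heart and liver the cells of no gate held 80.6 CPM in TIL labelled heart, 111 in TIL labelled liver and 50.6 in liver PC, against 8.56 and 4.98 in blood of heart and liver. T-cell markers were also higher in graft CD8 gates than in blood, so that scaling by them shifted every log2 ratio by -0.73 for TIL labelled heart, -0.59 for TIL labelled liver, -0.62 for liver PC, -0.24 for kidney TIL and -0.04 for kidney PC. Per UMI of those markers the heart ratio was 1.23-fold (0.867 to 1.81), an interval that includes no difference, while the others were 9.24-fold (3.59 to 34.0), 4.69-fold (1.83 to 17.2), 2.64-fold (1.84 to 3.89) and 2.35-fold (1.43 to 3.86). With the labels of the 2 TIL libraries exchanged, the ratios became 3.31-fold (2.32 to 4.85) for heart and 8.60-fold (3.34 to 31.7) for liver.

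Shares of cells also put graft above blood once depth was made equal. After each cell was thinned to 500 UMIs, Pdcd1 had a UMI in 3.04% (1.47 to 5.52), 0% (0 to 1.996) and 3.21% (1.48 to 6.01) of blood CD8 T cells of heart, liver and kidney, the liver value being 0 of 183 cells. In CD8 T cells labelled heart TIL the share was 7.56% (6.56 to 8.64), against 1.32% (0.161 to 4.70) of the neutrophil gate of that library, at median depths of 912 and 720 UMIs before thinning. The CD8 share was 11.5% (10.03 to 13.1) in the library labelled liver TIL, where the neutrophil gate reached 7.63% (3.72 to 13.6), so that the CD8 and neutrophil gates of this library could not be told apart by their shares. The neutrophil gate excludes cells with a CD3 gene, so Trac was the only T-cell marker it could hold. Trac stood at 542 and 412 CPM in the neutrophil gates of these 2 libraries, against 1193 and 943 in their CD8 gates. Those neutrophil gates were mixed, with 15646 and 12039 CPM of macrophage markers beside 4789 and 4372 of neutrophil markers. Cells with Cd8 UMIs were not left out of them. The CD8 share was 13.9% (11.5 to 16.6) in kidney TIL, 6.35% (5.68 to 7.08) in liver PC and 11.5% (7.56 to 16.5) in kidney PC. Before thinning these graft shares were 15.3%, 21.3%, 21.1%, 22.5% and 14.2%, so the deeply read liver PC moved from the top of the order to the bottom. Among graft libraries, CD8 T cells of liver PC held less Pdcd1 than those of the library labelled liver TIL, by 1.93-fold (1.75 to 2.14), and the neighbours liver TIL and kidney TIL did not differ beyond counting error, at 1.14-fold (0.957 to 1.35) in favour of kidney. If both TIL labels were exchanged, the first ratio would compare liver with heart. No ratio of liver PC to the library labelled heart TIL was taken.

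**Figure D1:**
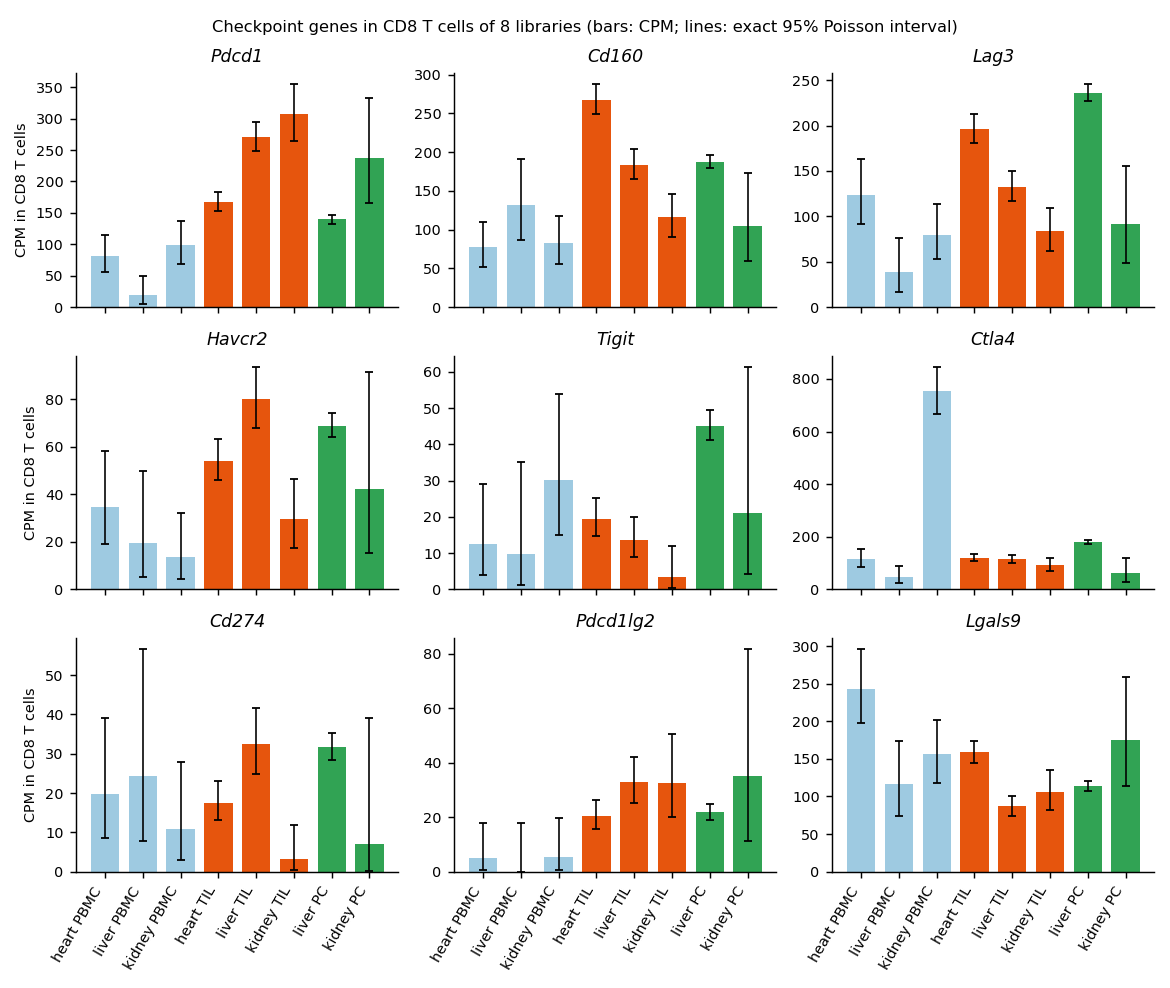
Level of each of the 9 genes in CD8 T cells, in CPM on an axis from 0, for the 8 libraries by their labels (blue PBMC, orange TIL, green PC), with exact 95% Poisson intervals as lines. Pdcd1 stood between 139.9 and 308 CPM in the 5 graft libraries and at most at 98.5 in blood, while Ctla4 reached 752 CPM in kidney PBMC.

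For Cd160 and Lag3 the ratio of graft to blood passed 2-fold in 1 and 2 of the 5 graft libraries. Cd160, whose product also marks NK cells and innate-like lymphocytes, stood at 76.9, 131 and 82.1 CPM in blood CD8 T cells of heart, liver and kidney. Graft CD8 T cells had 268 CPM in TIL labelled heart, 183 in TIL labelled liver, 116 in kidney TIL, 187 in liver PC and 105 in kidney PC. Only the library labelled heart TIL passed 2-fold over blood, at 3.48-fold (2.43 to 5.16), and it kept 2.10-fold (1.47 to 3.12) per T-cell marker. The other 4 ratios lay between 1.28-fold (0.640 to 2.46) and 1.43-fold (0.980 to 2.18), all with intervals that include 1. With both TIL labels exchanged the heart ratio was 2.38-fold (1.65 to 3.56) and the liver ratio 2.04-fold (1.39 to 3.12). Lag3, whose product binds MHC class II, was at 124, 38.85 and 79.3 CPM in the same blood cells. Its graft levels were 196 CPM labelled heart TIL, 133 labelled liver TIL, 83.4 kidney TIL, 236 liver PC and 91.1 kidney PC. Lag3 was therefore highest in liver PC and lowest in the kidney grafts, and liver ratios over blood were 3.42-fold (1.71 to 8.00) for TIL and 6.07-fold (3.08 to 14.1) for PC, against 1.05-fold (0.654 to 1.72) and 1.148-fold (0.548 to 2.28) in kidney and 1.58-fold (1.18 to 2.16) in heart. Per T-cell marker the liver ratios were 2.27-fold (1.13 to 5.30) and 3.95-fold (2.004 to 9.17), and the heart ratio was 0.957-fold (0.716 to 1.30), which includes 1. With both TIL labels exchanged, 133 CPM would stand against 124 in heart blood and 196 against 38.85 in liver blood. Liver PC over kidney PC gave 2.59-fold (1.51 to 4.87). Since liver PBMC had only 8 Lag3 UMIs, the size of the liver ratios rests on few molecules, and whether the ratios differed between organs was not tested.

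Havcr2 and Tigit were sparse. Havcr2, which encodes TIM-3, had 34.7, 19.4 and 13.7 CPM in blood CD8 T cells of heart, liver and kidney, from 14, 4 and 5 UMIs. It had 54.2 CPM in TIL labelled heart, 79.9 in TIL labelled liver, 29.4 in kidney TIL, 68.9 in liver PC and 42.0 in kidney PC. In CPM each of the 5 graft levels was above the blood level of its organ, by 1.56-fold or more, but per T-cell marker the heart ratio was 0.943-fold (0.545 to 1.77). The 2 liver libraries had intervals above 1, 4.12-fold (1.57 to 15.3) and 3.55-fold (1.38 to 13.0). Per T-cell marker these were 2.73-fold (1.04 to 10.1) and 2.31-fold (0.898 to 8.50), the second including 1. The heart ratio was 1.56-fold (0.902 to 2.92), and with both TIL labels exchanged it passed 2-fold, at 2.30-fold (1.33 to 4.31), while the liver ratio was then 2.79-fold (1.07 to 10.4). The kidney ratios, 2.15-fold (0.770 to 7.42) and 3.07-fold (0.781 to 12.7), could not be told from no difference at this depth. Tigit, whose product binds the poliovirus receptor, stood at 12.4, 9.71 and 30.1 CPM in the blood CD8 T cells. Its graft levels were 19.3 CPM labelled heart TIL, 13.6 labelled liver TIL, 3.27 kidney TIL, 45.2 liver PC and 21.0 kidney PC, so liver PC stood above all other libraries and was 3.33-fold (2.24 to 5.15) above the library labelled liver TIL. With both TIL labels exchanged that ratio would compare liver with heart, and none to the library labelled heart TIL was taken. Over liver blood, which had 2 Tigit UMIs, liver PC was 4.65-fold (1.28 to 38.5), and per T-cell marker 3.03-fold (0.834 to 25.1), which includes 1. In kidney TIL only 2 UMIs were counted against 11 in kidney blood, which makes blood 9.20-fold (2.01 to 85.4) higher.

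For Ctla4, the blood of the kidney recipients stood apart from the other blood libraries. Blood CD8 T cells had 117, 48.6 and 752 CPM for heart, liver and kidney, and graft CD8 T cells had 120.3 CPM labelled heart TIL, 114 labelled liver TIL, 93.2 kidney TIL, 180.2 liver PC and 63.0 kidney PC. The kidney blood level was 6.45-fold (4.72 to 8.99) that of heart blood and 15.5-fold (8.30 to 32.7) that of liver blood. It was spread over many cells, since 52 CD8 cells had 1 Ctla4 UMI, 37 had 2, 36 had 3 or more and the highest had 9, out of 280. After thinning, 24.6% (19.7 to 30.1) of them had a UMI, against 5.47% (3.27 to 8.51) in heart blood and 2.19% (0.599 to 5.50) in liver blood. The neutrophil gate of kidney blood had 5.90% (3.48 to 9.28), at a median depth of 618 UMIs against 1040 in the CD8 gate, but it was mixed, with 8835 CPM of NK-cell markers beside 9976 of neutrophil markers. In heart and liver blood the neutrophil gates had 0.401% (0.245 to 0.619) and 0.287% (0.153 to 0.490). The level differed between the gates of that library, since CD4 T cells reached 1439 CPM (1041 to 1938) from 22 cells, macrophages 239 CPM (119 to 428), the neutrophil gate 144 CPM (98.1 to 205) and NK cells 34.9 CPM (7.21 to 102). Cells with 3 or more Cd8 UMIs had 815 CPM and those with 0 had 341. Barcodes under 500 UMIs of that library held 178 CPM against 525 in its cells, so Ctla4 was also present outside the kept cells. Foxp3, which defines regulatory T cells, had 4 UMIs in 3 cells of the library, none of them in the CD8 or CD4 gate.

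Against this blood level both kidney grafts were lower, and blood exceeded kidney TIL by 8.07-fold (6.05 to 10.9) and kidney PC by 11.9-fold (6.20 to 26.4). In liver the direction was the opposite, with 2.35-fold (1.25 to 4.96) for TIL and 3.71-fold (2.01 to 7.75) for PC over blood. In heart the ratio was 1.03-fold (0.759 to 1.43). Per T-cell marker the heart ratio was 0.624-fold (0.459 to 0.865), that for TIL labelled liver was 1.56-fold (0.830 to 3.29), which includes 1, and that for liver PC was 2.42-fold (1.31 to 5.05). The graft levels themselves spread less than the blood levels, from 63.0 to 180.2 CPM, and heart TIL, liver TIL and kidney TIL did not differ from one another beyond counting error, with ratios of 1.06-fold (0.889 to 1.26) for heart over liver, 1.29-fold (0.972 to 1.74) for heart over kidney and 1.22-fold (0.909 to 1.67) for liver over kidney.

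**Figure D2:**
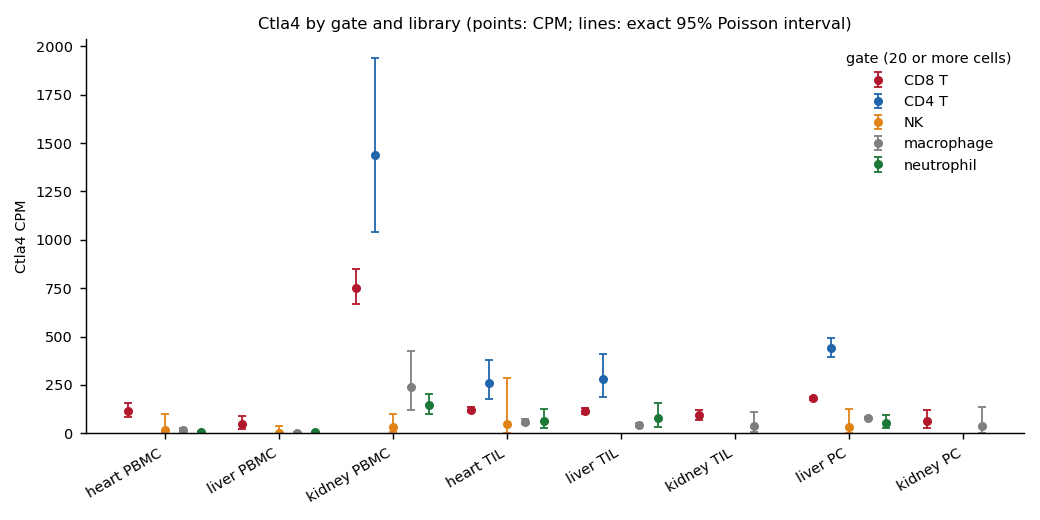
Ctla4 in CPM on an axis from 0 for CD8 T, CD4 T, NK, macrophage and neutrophil gates with 20 or more cells in each of the 8 libraries, with exact 95% Poisson intervals as lines. Kidney PBMC held the highest CD8 and CD4 levels, 752 and 1439 CPM, and in TIL labelled heart, TIL labelled liver and liver PC the CD4 gate stood above the CD8 gate.

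The PD-1 ligands differed from each other. Cd274, which encodes PD-L1, was low in CD8 T cells, at 19.8, 24.3 and 10.9 CPM in blood of heart, liver and kidney. It was at 17.6 CPM labelled heart TIL, 32.4 labelled liver TIL, 3.27 kidney TIL, 31.8 liver PC and 7.01 kidney PC, and no graft differed from its blood beyond counting error. Kidney TIL stood lowest, with 2 UMIs in 755 cells, and the library labelled liver TIL was 9.90-fold (2.63 to 83.6) above it. Pdcd1lg2, which encodes PD-L2, had 2, 0 and 2 UMIs in blood CD8 T cells, or 4.96, 0 and 5.47 CPM, and the count of 0 allows up to 14.6 CPM. Grafts had 20.4 CPM labelled heart TIL, 32.9 labelled liver TIL, 32.7 kidney TIL, 21.8 liver PC and 35.0 kidney PC. All 5 graft levels were thus above all 3 blood levels, by 4.11-fold (1.09 to 34.8) in heart, 5.98-fold (1.45 to 52.8) in kidney TIL, and at least 2.26-fold and 1.49-fold in TIL labelled liver and PC when blood is set at that limit of 3 counts. The exact intervals of the liver ratios began at 1.78 and 1.20, and per T-cell marker at 1.18 and 0.785, so that for liver PC a ratio of 1 was then included. The heart ratio per T-cell marker was 2.49-fold (0.658 to 21.0), which also includes 1, and that of kidney TIL was 5.06-fold (1.23 to 44.7). For kidney PC it was 6.22-fold (1.02 to 65.3), but the log2 ratio of CPM there turned from 2.48 to -2.23 in an alternative. With so few blood UMIs the size of these ratios is poorly known. Cells of no gate held Pdcd1lg2 at 21.1, 29.8 and 34.5 CPM in TIL labelled heart, liver and kidney. In liver PC and kidney PC they held 21.9 and 32.1 CPM, against 4.65, 2.37 and 1.86 in blood of heart, liver and kidney. Pdcd1lg2 was thus higher across the graft libraries and not in the CD8 gate alone.

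Lgals9, which encodes galectin-9, did not pass the 2-fold rule in any graft under the deposited labels and CPM. It stood at 243, 117 and 156 CPM in blood CD8 T cells of heart, liver and kidney and at 159, 86.7, 106, 114 and 175 CPM in CD8 T cells labelled heart TIL, liver TIL, kidney TIL, liver PC and kidney PC. Heart blood was the highest, and blood exceeded the graft by 1.53-fold (1.22 to 1.91) in heart and 1.47-fold (1.01 to 2.13) in kidney TIL, under the 2-fold rule. Per T-cell marker the heart ratio was 0.395-fold (0.316 to 0.496) and that for kidney TIL 0.577-fold (0.398 to 0.839). The liver ratios per T-cell marker were 0.494-fold (0.320 to 0.792) for TIL and 0.637-fold (0.426 to 0.999) for PC, also below 1. With both TIL labels exchanged the heart ratio was 0.357-fold (0.276 to 0.463), while the liver ratio turned from 0.744-fold (0.483 to 1.19) to 1.36-fold (0.903 to 2.15), both with intervals that include 1. In heart blood Lgals9 stood at 231, 207, 186 and 210.2 CPM in the gates of NK cells, macrophages, B cells and neutrophils. In the same order these gates held 16068, 30257, 28059 and 34711 CPM of neutrophil markers. Since all of them were mixed with neutrophil RNA, their similar levels could not show how Lgals9 was spread over cell types.

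Each gene of the whole table was classed by the same rule of size, a ratio of at least 2 after adding 1 CPM to both levels, among genes with at least 10 UMIs in both sums together. In the library labelled heart TIL, 3 of 9 members were higher than in heart blood (Pdcd1, Cd160 and Pdcd1lg2), beside 23.9% of all genes, and 0 were lower, beside 8.99%. The library labelled liver TIL had 5 of 9 higher (Pdcd1, Lag3, Havcr2, Ctla4 and Pdcd1lg2), beside 19.7%, and 0 lower, beside 11.4%. Liver PC had 6 of 9 higher, Tigit in addition to those 5, beside 30.5%, and 0 lower, beside 10.4%. Kidney TIL had 8 members tested, of which 3 were higher (Pdcd1, Havcr2 and Pdcd1lg2), beside 13.1%, and 2 lower (Tigit and Ctla4), beside 13.2%. Kidney PC had 7 tested, with 2 higher (Pdcd1 and Havcr2), beside 14.8%, and 1 lower (Ctla4), beside 19.3%. After thinning the count of higher members was 6 in the library labelled heart TIL (Pdcd1, Cd160, Lag3, Tigit, Cd274 and Pdcd1lg2) and 1 in kidney TIL (Pdcd1), where a minimum of 50 UMIs also left 1 (Pdcd1). After thinning kidney PC had 1. Both higher calls of kidney PC were lost in cells of at least 1000 UMIs, where 10 of 218 CD8 T cells were left, and with at least 3 Cd8 UMIs and a CD3 gene. The share of all genes was not taken under these alternatives, so their counts cannot be set beside it. Before thinning, heart blood CD8 T cells held 5 UMIs of Tigit and 8 of Cd274, so their calls rest on few molecules. The median log2 ratio of the tested members was 0.63, 1.21, 1.87, 0.28 and 0.20 in this order, and that of all tested genes 0.34, 0.12, 0.30, 0.06 and -0.01. Neutrophil markers were far higher in the CD8 gate of heart blood than in the graft, 18310.2 against 455 CPM. In liver they were at 3982 CPM in blood against 267 in TIL and 569 in PC, and in kidney at 1519 against 6.54 and 14.0. Macrophage markers of the CD8 gates stood at 5487 CPM in heart blood against 9284 in the graft, at 7659 in liver blood against 8104 and 6297 in TIL and PC, and at 878 in kidney blood against 3465 and 11748. The part of these cell types in the ratios was not tested.

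TIL and PBMC libraries of the 3 organs also allowed a test of CD8 T cells over 6 libraries, with the organ as block and 2 residual degrees of freedom. In edgeR's quasi-likelihood test of the summed UMIs, with Benjamini-Hochberg adjustment over 5001 genes, 2 of 8 members tested were higher in TIL, beside 3.68% of all genes, and 0 were lower, beside 6.68%. Pdcd1 was higher by 1.68 on the log2 scale (SE 0.39, adjusted p = 0.0186) and Pdcd1lg2 by 2.60 (SE 0.62, adjusted p = 0.0207), and both went this way in all 3 organs. Both calls were lost without the liver libraries, with adjusted p of 0.0809 and 0.108, and without the organ as block. The log2 differences of Pdcd1 and Pdcd1lg2 were 1.16 and 2.13 without liver and 1.69 and 2.62 without the block. DESeq2 called Pdcd1 alone. Cells of no gate also held more Pdcd1 and Pdcd1lg2 in TIL than in blood of each organ. Neither difference was thus limited to the CD8 gate. For Cd160, Lag3 and Havcr2 the log2 differences were 0.81, 0.58 and 0.98, with adjusted p of 0.0913, 0.267 and 0.144 in edgeR. Those of Ctla4, Cd274 and Lgals9 were -0.90, -0.33 and -0.69, with adjusted p of 0.364, 0.691 and 0.0801 in edgeR, and Tigit had too few UMIs to be tested. Without kidney the Ctla4 difference turned to 0.35, and scaled by T-cell markers Lgals9 was lower in TIL, with a log2 difference of -1.07 and an edgeR adjusted p of 0.0102.

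**Figure D3:**
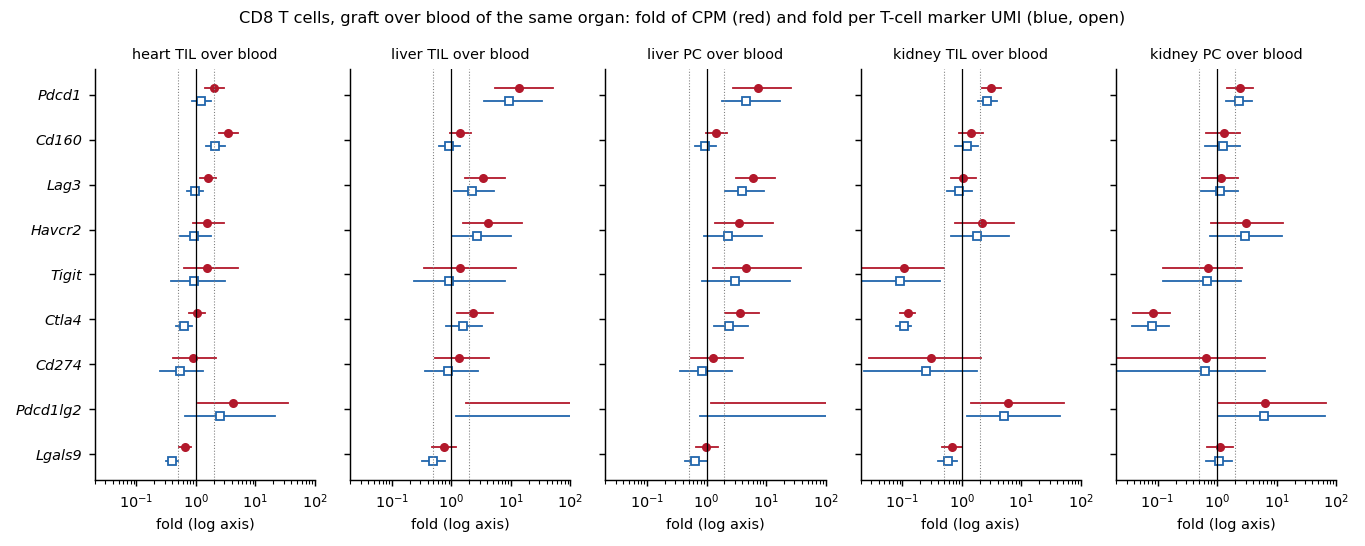
Fold of graft over blood CD8 T cells for each gene on a log axis, in 5 graft libraries, as a fold of CPM (red, filled) and as a fold per UMI of T-cell markers (blue, open), with exact 95% intervals drawn from 0.02 to 100 and dotted lines at 0.5 and 2. Lines without a point are Pdcd1lg2 in liver, where blood had 0 UMIs, and Pdcd1 lies right of 1 in all 5 panels, with an interval that includes 1 for heart TIL per T-cell marker.

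Within a library, Pdcd1 and Cd160 were at least 2-fold higher in CD8 T cells than in macrophages in 4 of the 5 graft libraries. Kidney PC was the exception and was left out of the counts by gate, with 1 cell in its CD4 gate, 84 macrophages and 8 Pdcd1 UMIs in the latter. There Pdcd1 stood at 238 against 149 CPM, 1.60-fold (0.727 to 4.004), and Cd160 at 105 against 130.2, 0.807-fold (0.310 to 2.34), and in cells of 1 gate the ratios were 1.62-fold (0.670 to 4.75) and 1.12-fold (0.295 to 6.23). In the other 4 the Pdcd1 levels were 167 against 54.8 CPM labelled heart TIL, 271 against 86.5 labelled liver TIL, 139.9 against 49.7 in liver PC and 308 against 137 in kidney TIL. The ratios were 3.05-fold (2.46 to 3.81), 3.13-fold (2.60 to 3.79), 2.82-fold (2.51 to 3.17) and 2.25-fold (1.23 to 4.58). Without cells that passed more than 1 gate the first 3 grew to 4.49-fold (3.398 to 6.03), 4.81-fold (3.79 to 6.17) and 6.78-fold (5.53 to 8.40), while that of kidney TIL became 2.03-fold (1.01 to 4.77), from 8 UMIs in macrophages. For Cd160 the ratios were 2.35-fold (2.02 to 2.75), 2.24-fold (1.84 to 2.75), 2.46-fold (2.24 to 2.71) and 2.33-fold (0.872 to 8.79). The last rests on 4 UMIs in macrophages and includes 1, and in cells of 1 gate it was 1.57-fold (0.589 to 5.94), under the rule. Members higher in CD8 T cells numbered 3 of 9 labelled heart TIL (Pdcd1, Cd160 and Havcr2), beside 4.38% of all genes, 5 of 9 labelled liver TIL and 5 of 9 in liver PC (Pdcd1, Cd160, Lag3, Tigit and Ctla4 in both), beside 7.77% and 2.98%, and 3 of 7 tested in kidney TIL (Pdcd1, Cd160 and Ctla4), beside 17.3%. All members so counted were receptors. Members lower in CD8 T cells were 1 labelled heart TIL and 1 in liver PC (Cd274 in both), beside 5.05% and 5.87%, and 0 labelled liver TIL and in kidney TIL, beside 5.73% and 9.95%. T-cell markers in the macrophage gates summed to 1524 to 2215 CPM in these 4 libraries, and their part in the receptor levels of macrophages was not tested.

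Cd274 went the other way. Macrophages held 49.4 CPM against 17.6 in CD8 T cells labelled heart TIL, 62.2 against 32.4 labelled liver TIL and 64.8 against 31.8 in liver PC. Macrophages were higher by 2.81-fold (1.97 to 4.05), 1.92-fold (1.39 to 2.67) and 2.04-fold (1.77 to 2.36). In liver blood the gates of neutrophils and B cells held Cd274 at 68.3 and 57.8 CPM, beside 43.0 in macrophages. That of B cells also held 15747 CPM of macrophage markers and 8252 of neutrophil markers, against 3157 of B-cell markers. Cells of no gate held 61.7 CPM of Cd274 and barcodes under 500 UMIs 77.1, so the level was not particular to these gates. Kupffer-like macrophages, those with at least 2 UMIs of Clec4f, Vsig4 and Cd5l, had 87.2 CPM in liver PC from 167 cells, against 62.9 in the other macrophages, a ratio of 1.39-fold (1.01 to 1.87), which in cells of 1 gate was 1.14-fold (0.758 to 1.67) and included 1. Such cells numbered 54 in the library labelled heart TIL, with a ratio of 2.18-fold (1.08 to 4.01) and, in cells of 1 gate, 1.91-fold (0.880 to 3.73), and 0 in that labelled liver TIL. The other PD-1 ligand, Pdcd1lg2, had ratios of CD8 T cells over macrophages of 1.151-fold (0.738 to 1.82) labelled heart TIL, 0.842-fold (0.587 to 1.21) labelled liver TIL and 1.18-fold (0.945 to 1.47) in liver PC, all with intervals that include 1. For Lgals9 the same ratios were 1.004-fold (0.865 to 1.17), 0.813-fold (0.655 to 1.01) and 0.875-fold (0.802 to 0.955), so that macrophages of liver PC held slightly more. In cells of 1 gate the Lgals9 ratios were 0.981-fold (0.833 to 1.16), 0.771-fold (0.609 to 0.974) and 0.812-fold (0.729 to 0.905), the last 2 below 1.

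In the libraries labelled heart TIL and liver TIL and in liver PC, CD4 T cells carried more Ctla4 than CD8 T cells. Their levels were 262 CPM (176 to 377) labelled heart TIL from 90 cells, 282 CPM (188 to 408) labelled liver TIL from 87 cells and 442 CPM (393 to 494) in liver PC from 343 cells. The CD4 level exceeded that of CD8 by 2.18-fold (1.44 to 3.19), 2.48-fold (1.61 to 3.68) and 2.45-fold (2.16 to 2.77). The CD4 gates of kidney TIL (12 cells) and heart blood (11 cells) held 1 and 0 Ctla4 UMIs, too few to compare. Lag3 was also higher in CD4 than in CD8 T cells of liver PC, 331 against 236 CPM, by 1.40-fold (1.22 to 1.61), and in the library labelled heart TIL by 1.61-fold (1.11 to 2.27). In cells of 1 gate the first of these was 1.42-fold (1.16 to 1.71) and the second 1.27-fold (0.651 to 2.24), which includes 1. Cd160 was higher in CD8 T cells, with 1.64-fold (1.03 to 2.79), 2.27-fold (1.14 to 5.31) and 1.70-fold (1.35 to 2.16) over CD4. In liver PC Pdcd1 was also higher in CD8 T cells, 139.9 against 106 CPM, by 1.32-fold (1.04 to 1.69). Members at least 2-fold higher in CD8 than in CD4 T cells were 1 labelled heart TIL (Pdcd1lg2), beside 24.5%, 1 labelled liver TIL (Cd160), beside 21%, and 0 in liver PC, beside 8.43%. The 1 in the library labelled heart TIL rests on 1 CD4 UMI. In kidney TIL, where the CD4 gate held 12 cells, 3 of 7 tested members passed, beside 52.8%. Members at least 2-fold lower in CD8 than in CD4 T cells were 2 labelled heart TIL (Tigit and Ctla4), beside 9.93%, 3 labelled liver TIL (Tigit, Ctla4 and Pdcd1lg2), beside 8.98%, 1 in liver PC (Ctla4), beside 2.95%, and 1 in kidney TIL (Havcr2, from 1 CD4 UMI), beside 18.6%. In cells of 1 gate Tigit labelled heart TIL was at 0.988-fold (0.169 to 39.8) and Pdcd1lg2 labelled liver TIL at 0.601-fold (0.194 to 3.02) for CD8 over CD4, neither past the rule. Only 9 CD4 T cells of liver PC had a Foxp3 UMI, and these held 28 Ctla4 UMIs, 1509.7 CPM against 412 in the rest, a ratio of 3.66-fold (2.39 to 5.41). Foxp3 had a UMI in 83 cells of that library, 33 of them in the CD8 gate.

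**Figure D4:**
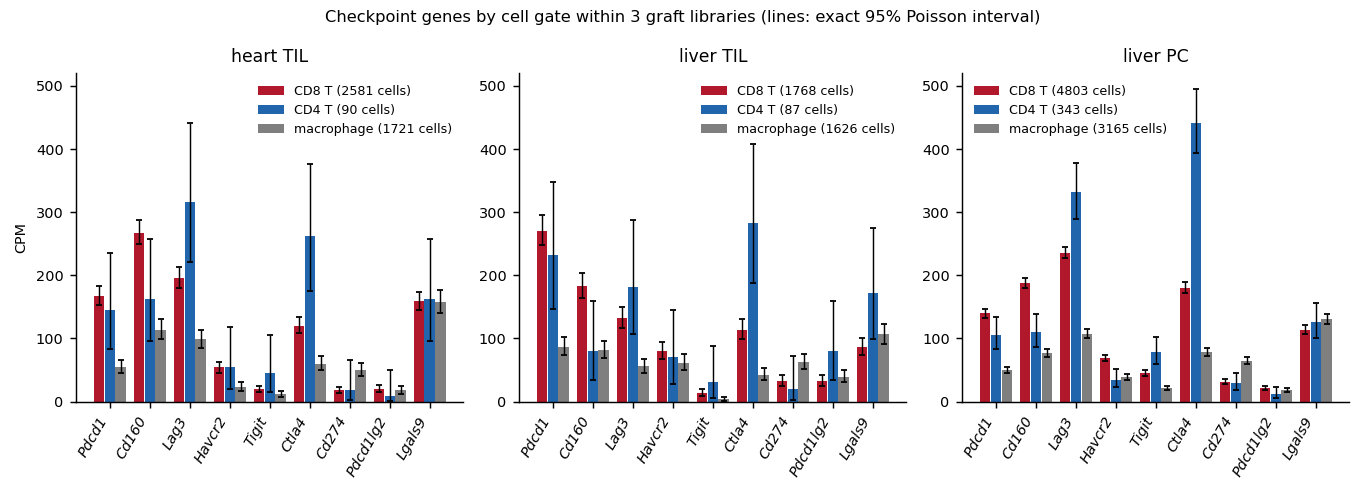
Levels in CPM from 0 of the 9 genes in CD8 T cells, CD4 T cells and macrophages of 3 graft libraries by their labels, with exact 95% Poisson intervals as lines; bars are to be compared within a gene. CD4 T cells stood above CD8 T cells for Ctla4 in all 3 panels, at 262, 282 and 442 CPM, and Cd274 was lower in CD8 T cells than in macrophages in all 3.

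The level of Pdcd1 changed with the number of Cd8a and Cd8b1 UMIs in a cell, on both sides of the limit of 2 that defines the CD8 gate. For cells with 0, 1, 2 and 3 or more such UMIs it was 58.0, 93.9, 137 and 190.1 CPM labelled heart TIL and 84.1, 138, 221 and 311 labelled liver TIL. The same series was 29.97, 53.1, 77.9 and 157 CPM in liver PC and 204, 213, 304 and 310.1 in kidney TIL. T-cell markers went the same way, for example from 1326 to 3907 CPM in liver PC and, less steeply, from 2365 to 3269 in kidney TIL.

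The CD8 gate of liver PC held 48.0% of cells and 53.7% of all UMIs, and the macrophage gate, which overlaps it, 37.5% of UMIs. Of the Pdcd1 UMIs in cells of that library the CD8 gate held 80.5%, of those of Cd160 73.9% and of those of Lag3 72.1%, while for Cd274 the macrophage gate held 53.6% and the CD8 gate 37.6%. In the TIL libraries the CD8 gate held 51.2%, 44.7% and 50.9% of Pdcd1 for those labelled heart, liver and kidney, beside 31.1%, 23.2% and 41.3% of all UMIs.

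NK cells, taken in numbers over 30 in the 3 blood libraries and liver PC, carried Cd160, while no Pdcd1 UMI was counted in them. Their Cd160 level was 142, 120.2 and 233 CPM in blood of heart, liver and kidney and 284 in liver PC. In kidney blood it exceeded that of CD8 T cells by 2.84-fold (1.53 to 5.17). Pdcd1 had 0 UMIs in NK cells of these 4 libraries, which allows up to 53.4, 30.04, 34.9 and 53.2 CPM. With NK cells set at that limit of 3 counts, the Pdcd1 level of CD8 T cells was at least 1.53-fold higher in heart blood, at least 2.82-fold in kidney blood and at least 2.63-fold in liver PC. The exact intervals of these 3 ratios began at 1.18, 2.18 and 2.14. In liver blood the CD8 level of 19.4 CPM lay under the limit of the NK gate, so no difference could be shown. The smaller NK gates held 1 Pdcd1 UMI in 26 cells labelled heart TIL and 2 in 18 cells labelled liver TIL.

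Cycling CD8 T cells, with at least 2 UMIs of Mki67, Top2a, Stmn1, Birc5 and Cdk1, held more Pdcd1 and less Cd274 in 3 and 2 graft libraries than the other CD8 T cells. For Pdcd1 the levels were 194 against 145 CPM labelled heart TIL, 327 against 238 labelled liver TIL and 155 against 116 in liver PC. The ratios were 1.34-fold (1.11 to 1.61), 1.37-fold (1.147 to 1.64) and 1.34-fold (1.20 to 1.49). In kidney TIL the ratio was 1.08-fold (0.795 to 1.45), and in kidney blood, where 147 of 280 CD8 T cells were cycling, it was 4.89-fold (1.54 to 24.9). Cd274 was at 22.6 CPM in cycling and 45.6 in other CD8 T cells of liver PC, a ratio of 0.495-fold (0.395 to 0.620), and in the library labelled liver TIL the ratio was 0.462-fold (0.230 to 0.865). Ctla4 of kidney blood stood at 755 and 746 CPM in cycling and other cells, 1.01-fold (0.779 to 1.32).

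Receptors were also found together in single CD8 T cells. In liver PC, of 4803 CD8 T cells, 418 had a UMI of both Pdcd1 and Cd160 (8.70%), 517 of Pdcd1 and Lag3 (10.8%) and 587 of Lag3 and Ctla4 (12.2%). The product of the single shares would give 299, 388 and 453 cells, so the observed counts were 1.40 (1.27 to 1.54), 1.33 (1.22 to 1.45) and 1.30 (1.19 to 1.40) times that product. All 15 receptor pairs of liver PC were above the product, from 1.21 to 1.62 times with a median of 1.37 and with all 15 intervals above 1. Detection depends on the depth of a cell, so the product was also taken per depth, and within 5 bins of UMI depth the median was 1.19, still above 1 for all 15 pairs. After thinning to 500 UMIs it was 1.22, and 14 of 15 pairs stayed above 1, Havcr2 with Tigit being the exception at 0.589 from 2 cells. The pair of Pdcd1 and Havcr2 was the highest at full depth, 1.62 (1.41 to 1.85), and fell to 1.27 within depth bins and 1.03 after thinning.

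The TIL libraries held the same pairs at lower counts. In the library labelled heart TIL, 118 of 2581 CD8 T cells had Pdcd1 and Cd160 and 104 had Pdcd1 and Lag3, 1.31 (1.09 to 1.57) and 1.40 (1.148 to 1.70) times the product. In that labelled liver TIL, 75 and 78 of 1768 did, at 1.27 (0.998 to 1.59) and 1.62 (1.28 to 2.03). Kidney TIL had 15 of 755 with Pdcd1 and Cd160, at 1.19 (0.664 to 1.96), which includes 1. Of the pairs with a product of at least 5 cells, 14 of 14 labelled heart TIL and 11 of 11 labelled liver TIL were above 1 at full depth, 6 and 5 of them with an interval above 1, and 11 and 9 were above 1 within depth bins. After thinning 9 of 14 and 9 of 11 were, Pdcd1 with Cd160 in the library labelled liver TIL falling to 0.942. Blood had too few positive cells for most pairs, since Pdcd1 and Cd160 met in 3, 1 and 3 CD8 T cells of heart, liver and kidney blood. In heart blood the 1 pair with a product of at least 5 cells was Lag3 with Ctla4, found together in 14 of 329 CD8 T cells. That was 2.43 (1.33 to 4.08) times the product, 1.92 times within depth bins and 2.44 times after thinning, the last from 2 cells, and it stood above the full-depth ratio of every graft pair with such a product. Kidney blood gave 21 cells with Pdcd1 and Ctla4, 1.74 (1.08 to 2.66) times the product at full depth and 1.10 times within depth bins.

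Pairs that include a ligand were divided. Of 21 pairs of liver PC that include a ligand, 17 were above the product at full depth and 9 within depth bins. The 4 below it paired Cd274 with Pdcd1, Cd160, Lag3 and Ctla4. Pdcd1 and Cd274 met in 50 CD8 T cells, 0.736 (0.546 to 0.971) times the product of 67.9, and the value within depth bins was 0.619. After thinning only 5 such cells were left against a product of 4.76, which cannot show a difference. Counting receptors per cell, 807 CD8 T cells of liver PC (16.8%) had 3 or more of the 6 at full depth, where the product of the shares gives 12.2%. After thinning the share was 0.708% (0.491 to 0.988) against 0.498%, which the interval includes. Exactly 2 receptors were found in 6.16% (5.50 to 6.88) after thinning, above the 5.31% of the product. At full depth exactly 2 were found in 21.4% (20.2 to 22.6), below the 27.9% of the product. In the libraries labelled heart TIL and liver TIL the thinned shares were 0.465% (0.240 to 0.811) and 0.283% (0.0919 to 0.659), with intervals that also include the 0.349% and 0.269% that the product gives, and their shares with exactly 2, 3.99% (3.27 to 4.82) and 4.30% (3.402 to 5.35), also had intervals that include the product.

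Other genes of the same pathways were taken from a list of 29, of which 28 had a row. Counts are given here for further inhibitory receptors, ligands and transcription factors in this order. In CD8 T cells of liver PC over liver blood, 3 of 9, 6 of 10 and 3 of 9 tested genes were higher, beside 30.5% of all genes, and 1, 0 and 2 were lower, beside 10.4%. In the library labelled heart TIL 1 of 9, 5 of 8 and 4 of 8 were higher, beside 23.9%, and 3, 0 and 0 lower, beside 8.99%. In that labelled liver TIL 2 of 8, 3 of 6 and 2 of 8 were higher, beside 19.7%, and 1, 0 and 2 lower, beside 11.4%. Kidney TIL had 2 of 7, 0 of 4 and 0 of 5 higher, beside 13.1%, and 1 of each lower, beside 13.2%. Kidney PC had 0 of 5, 0 of 3 and 0 of 4 higher, beside 14.8%, and 1, 1 and 2 lower, beside 19.3%. Several of these shares, such as 3 of 9 in liver PC, lie near that of all genes. Most ligands called higher in liver PC and in the library labelled heart TIL had 2 or fewer blood UMIs and an interval that includes 1. Klrg1, an inhibitory receptor of terminal effector cells, was lower in 4 of 5 comparisons, with blood higher by 5.92-fold (3.76 to 9.20) for TIL labelled liver, 11.6-fold (7.78 to 16.8) for liver PC and 6.41-fold (2.54 to 19.2) for kidney TIL. Tcf7, a factor of naive and memory T cells, was lower in the same 4, with blood higher by 3.38-fold (1.78 to 6.11), 3.39-fold (1.91 to 5.62), 3.25-fold (1.76 to 6.21) and, with an interval that includes 1, 2.15-fold (0.889 to 6.27). Nr4a1, induced by signalling through the T-cell receptor, was higher labelled heart TIL, labelled liver TIL and in liver PC by 2.53-fold (1.42 to 4.97), 3.801-fold (1.27 to 18.7) and 4.25-fold (1.45 to 20.7), the liver ratios against 3 blood UMIs, and in kidney TIL the ratio was 0.498-fold (0.120 to 1.96). With both TIL labels exchanged the Nr4a1 ratio was 1.86-fold (1.02 to 3.71) in heart, under the rule, and 5.17-fold (1.74 to 25.2) in liver, and the calls of the other 4 related genes named here were as before in both TIL libraries. Prdm1 and Nectin2 passed the rule in the same 3 libraries from 3 or fewer blood UMIs, at 19.3, 16.7 and 19.0 CPM for Prdm1, a factor of effector T cells, and 6.33, 6.27 and 3.11 for Nectin2, a ligand of TIGIT. The heart ratio of Prdm1 was 2.60-fold (0.844 to 13.0), which includes 1. With liver blood, where Prdm1 had 0 UMIs, set at 3 counts, Prdm1 was at least 1.148-fold and 1.31-fold higher in TIL and PC, but the exact intervals began at 0.880 and 1.05, so the first includes 1. No Nectin2 ratio reached 1 at that limit.

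The genes whose levels went most alike with each member were ranked by Pearson's r of log2(CPM + 10) over 23 profiles of a library and a gate with at least 30 cells, among 10157 genes and without the gate genes. Profiles of 1 library share its depth and its free RNA, and r is given as a description. For Cd160 they were Nkg7 (0.888), Rbbp7 (0.873), Gimap4 (0.867), Klrc1 (0.841), Cks1b (0.839), for Lag3 Bcl2a1d (0.904), Trac (0.899), Cd6 (0.875), Trbc2 (0.870), Izumo1r (0.859) and for Lgals9 Slc2a6 (0.678), Zfand4 (0.677), Gm5526 (0.654), 5430405H02Rik (0.650), Scly (0.645), and 4 of the 5 in each list recurred with a pseudocount of 1. For Cd274 they were Trafd1 (0.861), Itm2b (0.853), Pla2g7 (0.852), Atp6v1b2 (0.850), Sirpa (0.840), of which 3 recurred. For Pdcd1 they were Shmt1 (0.892), Ldha (0.888), Trac (0.882), Cd6 (0.881), Cyb5a (0.881), and for Havcr2 Noa1 (0.898), Insig2 (0.879), Cxcr6 (0.859), Pdcd1 (0.858), Trac (0.845), which includes Pdcd1 itself. Those of Ctla4 were Gtf2i (0.831), Ubash3a (0.830), Pdik1l (0.818), Dpp4 (0.803), Cenpa (0.795), of Tigit Ewsr1 (0.841), Wdr1 (0.807), Dnajb13 (0.795), Gimap6 (0.792), Rbbp4 (0.771) and of Pdcd1lg2 Tomm40l (0.787), Ccl8 (0.767), AW112010 (0.761), Gorasp2 (0.759), Rnu3a (0.754), and for these 5 receptors and ligands only 1 or 2 of 5 recurred, so the names depend on the scale. Among the members, Pdcd1 and Havcr2 had an r of 0.858, Pdcd1 and Lag3 0.791 and Lag3 and Ctla4 0.714, whereas Pdcd1 and Cd274 had -0.290.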

How the data were processed

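The authors made each library by Microwell-seq, aligned reads to mouse GRCm38 with STAR 2.5.2a, left out reads with more than 1 alignment, merged unique molecular identifiers (UMIs) that differed by 1 base, and deposited a table of raw UMI counts for each library, genes by barcodes. The submitters' processing notes also name bcl2fastq. The counts were read with Python 3.11.15, numpy 2.4.6, scipy 1.17.1 and pandas 2.3.3, and figures were drawn with matplotlib 3.10.9.

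Cells of at least 500 UMIs were gated by single genes, as given with the results, since no cell annotation was used. The submitters' labels gave 1 library per group, so the UMIs of all cells in a gate were added up and given per 1000000 (CPM) with exact Poisson intervals, shares of cells with exact Clopper-Pearson intervals and ratios with exact conditional binomial intervals, all 95%. Ratios of co-detection had exact 95% Poisson intervals of the observed count, with the product of the shares taken as fixed. These intervals cover counting error only. The only test between conditions compared UMI sums of TIL and PBMC CD8 T cells over the 3 organs, with edgeR 4.0.16 (R 4.3.3, quasi-likelihood, TMM, filterByExpr, organ as block) and, as an alternative, DESeq2 1.42.0, and it was added after the data were seen. The paper names the same recipients as the source of the blood and graft samples of an organ. Which recipient gave which library is not given in the sources used here. A gene was called higher or lower at a ratio of 2 with a pseudocount of 1 CPM and at least 10 UMIs in both sums together, over the whole table. A count of 0 was given an upper limit of 3 counts. Cells were thinned to 500 UMIs with a fixed seed. No doublet caller was run, and cells that passed more than 1 gate were left out in an alternative.

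The 9 genes, the related genes and the gates were chosen with earlier results of these data known, so no pattern among them is independent support. All 9 genes were named. Of the related genes, those past the rule of size in 3 or more of the 5 graft comparisons were named, and for each gene of the set the 5 genes with the highest r. Gene positions came from GENCODE M21 and promoters from RefSeq. The calls, the intervals and the thinning were tested on simulated data.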

Additional observations from a re-analysis of the deposited data

Results flagged for a closer look

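Ctla4 went in opposite directions between blood and graft in 2 organs. In CD8 T cells of liver the graft was higher than blood, by 2.35-fold in the library labelled liver TIL and 3.71-fold in liver PC. In kidney the graft was lower, at 0.124-fold of blood in TIL and 0.0838-fold in PC. With 1 library per condition the difference between the organs was not tested. The 4 ratios rest on both blood libraries, which held 48.6 CPM (liver, 10 UMIs) and 752 CPM (kidney, 275 UMIs) of Ctla4 in CD8 T cells, while the graft levels lay between 63.0 and 180.2 CPM.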

How the results depend on the processing

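Of 116 counts of members called higher under an alternative, 94 stayed within 1.5 times the first count and 22 did not. The share of all genes was not taken under the alternatives, so these counts have none beside them. For graft over blood, thinning gave 6 members in the library labelled heart TIL, 1 in kidney TIL and 1 in kidney PC. A minimum of 50 UMIs gave 1 in kidney TIL and 1 in kidney PC, and in kidney PC cells of 1 gate gave 1, cells of at least 1000 UMIs 0 and the CD8 gate of 3 UMIs with a CD3 gene 0. For CD8 over CD4 T cells, the library labelled heart TIL had 0 with a pseudocount of 10 CPM, 2 with cells of 1 gate and 2 after thinning, that labelled liver TIL had 2 after thinning, liver PC had 1 with at least 1000 UMIs, 2 with cells of 1 gate, 1 after thinning and 1 with the stricter CD8 gate, and kidney TIL had 5 with no minimum and 5 with cells of 1 gate. For CD8 T cells over macrophages, the library labelled heart TIL had 6 with at least 1000 UMIs, 5 with cells of 1 gate and 6 with the stricter gate, and kidney TIL had 1 with at least 1000 UMIs. Scaling by T-cell markers, leaving out shared barcodes and exchanging labels for the related genes were chosen after seeing the data. Of 468 log2 ratios 434 kept within the counting error, 32 moved and 2 reversed: in kidney PC at 1000 UMIs Pdcd1 became -7.02 and Havcr2 -4.28, from 10 CD8 T cells with 0 UMIs of either. Only a ratio called at first could count as reversed, and other changes of direction counted as kept or moved. Examples are Cd274 labelled heart TIL, from -0.17 to as high as 1.73, and Cd160 of kidney PC, from 0.35 to as low as -6.07. The cause of the other changes was not tested.

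A value of co-detection counted as reversed only if it fell below 1 while the full-depth interval lay above 1. Other values below 1 counted as kept or moved. Of 141 values of co-detection, 112 kept within the counting error, 25 moved and 4 reversed. After thinning Cd160 with Lag3 was 0.781 and Lag3 with Ctla4 0.931 in the library labelled heart TIL, Pdcd1 with Havcr2 0.871 in that labelled liver TIL and Havcr2 with Tigit 0.589 in liver PC. Pdcd1 with Lag3 moved to 1.11 after thinning in the library labelled heart TIL, to 1.28 after thinning and 1.28 within depth bins in that labelled liver TIL, and to 1.18 and 1.19 in liver PC. Pdcd1 with Cd160 moved to 0.942 after thinning in the library labelled liver TIL and to 1.14 and 1.21 in liver PC. With a pseudocount of 1, the 5 most alike genes shared 1 name for Pdcd1, 2 for Havcr2, 1 for Tigit, 2 for Ctla4, 3 for Cd274 and 1 for Pdcd1lg2. Exchanging both TIL labels gives no other value within a library. The fit over 3 organs, also chosen after seeing the data, called 2 members higher with the organ as block, 0 without the block, 4 with no filter on low counts (Cd160 and Havcr2 in addition), 1 in DESeq2 and 0 to 3 without 1 organ in turn, 0 being without liver. It called 0 lower, and 1 when scaled by T-cell markers, and Ctla4 ranged from -1.68 to 0.35 without 1 organ in turn, turning direction without kidney. Exchanging both TIL labels and relative log expression factors left Pdcd1 and Pdcd1lg2 called. The labels give no replicate numbers, so libraries were paired by organ alone. Havcr2, Tigit, Cd274 and Pdcd1lg2 each had 14 or fewer UMIs in the CD8 T cells of every blood library, so their ratios rest on few molecules.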

Other observations

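Kupffer-like macrophages of liver PC held less Pdcd1, Cd160, Lag3 and Ctla4 than other macrophages, and fewer T-cell markers. They had 17.8 CPM of Pdcd1 against 52.4 in the other macrophages, a ratio of 0.340-fold (0.161 to 0.632). The ratios for Cd160, Lag3 and Ctla4 were 0.355-fold (0.201 to 0.581), 0.377-fold (0.240 to 0.566) and 0.301-fold (0.163 to 0.509). T-cell markers stood at 811 CPM in Kupffer-like and 1683 in other macrophages. Without macrophages that passed another gate the Pdcd1 levels were 19.7 and 23.8 CPM, 0.829-fold (0.324 to 1.78), so that no difference was left beyond counting error. Cd160, Lag3 and Ctla4 then had 0.318-fold (0.102 to 0.757), 0.435-fold (0.206 to 0.813) and 0.419-fold (0.166 to 0.881). T-cell markers were then at 533 and 965 CPM, and their part in the receptor levels was not tested. Lgals9 stood at 160.1 against 128 CPM, a ratio of 1.25-fold (0.997 to 1.56).

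Havcr2 was higher in cycling than in other CD8 T cells of liver PC, 78.8 against 53.9 CPM and 1.46-fold (1.24 to 1.72), while Lag3 was lower there, 0.881-fold (0.813 to 0.956). In the library labelled liver TIL the Lag3 ratio was 1.35-fold (1.05 to 1.75). Regulatory-like CD4 T cells of liver PC, those with a Foxp3 UMI, also held more Lag3, 701 against 321 CPM and 2.18-fold (1.14 to 3.81), from 9 cells.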
